A study of Mus musculus with 9 samples.

Results

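Transcripts of 10 genes of interleukin-1 (IL-1) and Toll-like receptor signalling were followed in osteocyte-like MLO-Y4 cells that shared a medium with IL-1β-stimulated chondrocytes. The genes were taken by name from a table of 56748 genes. They comprise the ligand Il33, the antagonist Il1rn, the receptor chains Il1r1, Il1rap and Il1rl1, the Toll-like receptors Tlr2 and Tlr4, the adaptor Myd88 and the kinases Irak4 and Irak1. All 10 passed the filter on low counts, as did 13812 genes in all. The question was whether these cells carry the receptors and adaptors that read IL-1 and Toll-like receptor ligands, and whether their transcript levels differ with co-culture.

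IL-1 and IL-33 bind receptors that share an accessory chain, IL1RAP. IL-1α and IL-1β bind the chain encoded by Il1r1, which the receptor antagonist encoded by Il1rn occupies without signalling. IL-33 is held in the nucleus and acts as an alarmin when cells are damaged, through ST2, the product of Il1rl1. TLR2 recognises bacterial lipoproteins and TLR4 recognises lipopolysaccharide. All of these receptors carry a cytoplasmic TIR domain that recruits the adaptor MYD88, which in turn assembles the kinases IRAK4 and IRAK1 and leads to activation of NF-kB and MAP kinases. In osteoarthritic joints, IL-1 and fragments of matrix are known ligands of these receptors.

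MLO-Y4 is a clonal osteocyte-like line from mouse long bone, immortalised by a viral T antigen. It was grown on collagen below transwell inserts that held primary articular chondrocytes of C57BL/6J pups. Each of the 3 groups had 3 libraries. In the control group the chondrocytes were not stimulated, and the labels give no culture time. Stimulation and duration of culture can therefore both enter a comparison with control. In the 24 h and 48 h groups the chondrocytes had received 10 ng/mL IL-1β for 6 h and were then co-cultured with MLO-Y4 cells for the stated time. The labels of the 48 h libraries name the line MLO-Y5, MLO-Y6 and MLO-Y7, whereas the protocol names MLO-Y4 throughout.

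The control libraries held 12250628 to 15956441 counts, the 24 h libraries 14440454 to 15558585 and the 48 h libraries 16458398 to 18515456. Levels are given as CPM, the count relative to the library total, after scaling of library sizes. Of the osteocyte markers, Mepe and Fgf23 were at 0 counts in all 9 libraries, Sost reached at most 1 count and Dmp1 at most 6. Of the 8 markers listed 4, Phex, Pdpn, Gja1 and Cd44, were measured well enough to be tested. The name osteocyte-like is that of the line, and these markers do not test it. Phex was at 14.6 CPM in control, 12.3 CPM at 24 h and 19.7 CPM at 48 h. The list summed to 1943 to 2135 CPM in control, 2247 to 2280 CPM at 24 h and 2865 to 2911 CPM at 48 h. Most of it was Gja1, at 1497 CPM in control and 2410 CPM at 48 h, whereas Cd44 fell from 330.9 to 223.2 CPM (adjusted p = 3.34e-08). Of 6 osteoblast markers 5 were tested, and Ibsp was at 0 in every library. That list summed to 1318 to 1396 CPM in control, 1170 to 1234 CPM at 24 h and 1237 to 1270 CPM at 48 h. Most of it was Col1a1, at 1272 CPM in control and 1158 CPM at 48 h. Of 12 chondrocyte markers, Acan, Matn1, Col9a1 and Col9a2 were at 0 in every library. That list summed to 1681 to 1715 CPM in control, 1565 to 1648 CPM at 24 h and 2126 to 2214 CPM at 48 h. Most of it was Prg4, which was at 1574 CPM in control, 1491 CPM at 24 h and 2044 CPM at 48 h. Sox9 rose from 111.6 CPM in control to 123.5 CPM at 48 h (adjusted p = 0.0449). Comp rose from 0.32 to 0.87 CPM (adjusted p = 0.0267), whereas Matn3 fell from 4.02 to 1.65 CPM (adjusted p = 0.00155). Col11a2 and Col10a1 were tested and not called at 48 h. Of 10 leukocyte markers, Adgre1, Itgam, Tyrobp and Cd3e were at 0 in every library, and the list summed to between 3.93 and 8.17 CPM. The part of these markers in the differences below was not tested. In RNA of whole cultures, fewer cells of a type and less RNA per cell cannot be told apart.

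Promoter sequence is shown for Il33, whose transcript changed most, and for Tlr2 and Il1r1, whose promoters held a match to the NF-kB consensus, a motif bound by the transcription factor at the end of this pathway. The windows are from RefSeq and run from 250 bases before to 50 bases after an annotated start. They were given for build GRCm38.p6, and each matched the GRCm39 genome exactly once. All of the 10 genes except Tlr4 had an entry, with 15 windows in all. Capitals mark NF-kB matches on either strand. The Il33 windows, at chr19:29902263-29902562 and chr19:29922940-29923239 on the plus strand, held none.
Il33 first promoter: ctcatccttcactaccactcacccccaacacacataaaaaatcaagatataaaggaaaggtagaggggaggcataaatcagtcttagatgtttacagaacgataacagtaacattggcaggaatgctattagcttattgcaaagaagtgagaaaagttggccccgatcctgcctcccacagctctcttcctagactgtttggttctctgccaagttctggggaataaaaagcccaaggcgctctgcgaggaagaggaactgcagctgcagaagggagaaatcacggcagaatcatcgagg
Il33 second promoter: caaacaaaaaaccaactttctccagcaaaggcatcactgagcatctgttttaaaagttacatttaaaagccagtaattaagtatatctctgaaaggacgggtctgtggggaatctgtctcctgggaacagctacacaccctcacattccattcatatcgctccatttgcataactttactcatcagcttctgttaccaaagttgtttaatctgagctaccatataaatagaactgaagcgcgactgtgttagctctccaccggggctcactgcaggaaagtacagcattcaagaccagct
The Tlr2 window lies at chr3:83748866-83749165 on the minus strand. Its matches cover bases 78 to 88, where overlapping matches were found on both strands, and bases 243 to 252, counted from the first base shown.
Tlr2 promoter: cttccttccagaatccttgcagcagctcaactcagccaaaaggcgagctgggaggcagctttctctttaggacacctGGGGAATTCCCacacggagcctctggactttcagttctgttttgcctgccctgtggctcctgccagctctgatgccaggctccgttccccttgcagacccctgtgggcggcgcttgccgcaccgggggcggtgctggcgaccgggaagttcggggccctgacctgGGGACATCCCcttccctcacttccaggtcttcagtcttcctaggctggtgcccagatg
The second Il1r1 window lies at chr1:40305496-40305795 on the plus strand. It held 1 match at bases 19 to 28, on the opposite strand.
Il1r1 second promoter: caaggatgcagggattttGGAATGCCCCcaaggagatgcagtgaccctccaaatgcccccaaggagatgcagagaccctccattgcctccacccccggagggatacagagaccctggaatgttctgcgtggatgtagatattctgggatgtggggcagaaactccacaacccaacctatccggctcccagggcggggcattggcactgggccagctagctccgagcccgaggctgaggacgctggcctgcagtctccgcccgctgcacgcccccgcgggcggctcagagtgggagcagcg
Matches were found in 2 of the 15 windows, and in 4.51% of the 32851 promoter windows of the mouse. The short hypoxia response element ACGTG or GCGTG, searched on both strands, was in 6 of the 15 windows and in 43.8% of all windows. A match describes letters in these windows and does not show binding. No measurement of binding was made here.

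Levels were compared between genes after division by gene length, as CPM per kilobase. Il1rl1, which encodes the IL-33 receptor ST2, was by far the most abundant, at 149.9 ± 11.2 CPM per kilobase in control (SD, n = 3). This level was above that of 98.2% of the genes tested. The next gene, Irak1, stood at 23.6 ± 0.503 CPM per kilobase, so that Il1rl1 exceeded the gene next in order 6.36-fold in control, and likewise 7.73-fold at 24 h and 6.75-fold at 48 h. Il1r1 (14.8 ± 1.24) and Myd88 (13.8 ± 0.833) followed in CPM per kilobase, and their control libraries overlapped. Irak4 at 5.48 ± 0.205, Tlr4 at 5.11 ± 0.428 and Tlr2 at 4.91 ± 0.378 CPM per kilobase formed a group in which neighbours overlapped. The lowest were Il1rap at 2.32 ± 0.178 and Il33 at 2.30 ± 0.268, again with overlapping libraries, and Il1rn at 0.980 ± 0.061 CPM per kilobase. This order, and the ratios per kilobase below, depend on the gene length used, which is 11360 bases for Il1rap. Before division, Il1rap was at 26.4 CPM in control, beside Tlr4 at 28.4, Irak4 at 27.5 and Tlr2 at 14.8 CPM. Which isoforms the cells used was not measured. All 10 transcripts were detected in all 9 libraries.

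At 24 h the order was the same except that Il33 moved from the ninth to the fifth place, at 6.94 ± 0.653 CPM per kilobase. At 48 h Il1r1 stood at 22.0 ± 1.10 and Irak1 at 20.9 ± 0.692 CPM per kilobase, with overlapping libraries. Within each library, Il1rl1 exceeded Il1r1 per kilobase 10.2 ± 0.169-fold in control, 11.3 ± 0.407-fold at 24 h and 6.75 ± 0.119-fold at 48 h (SD, n = 3).

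**Figure D1:**
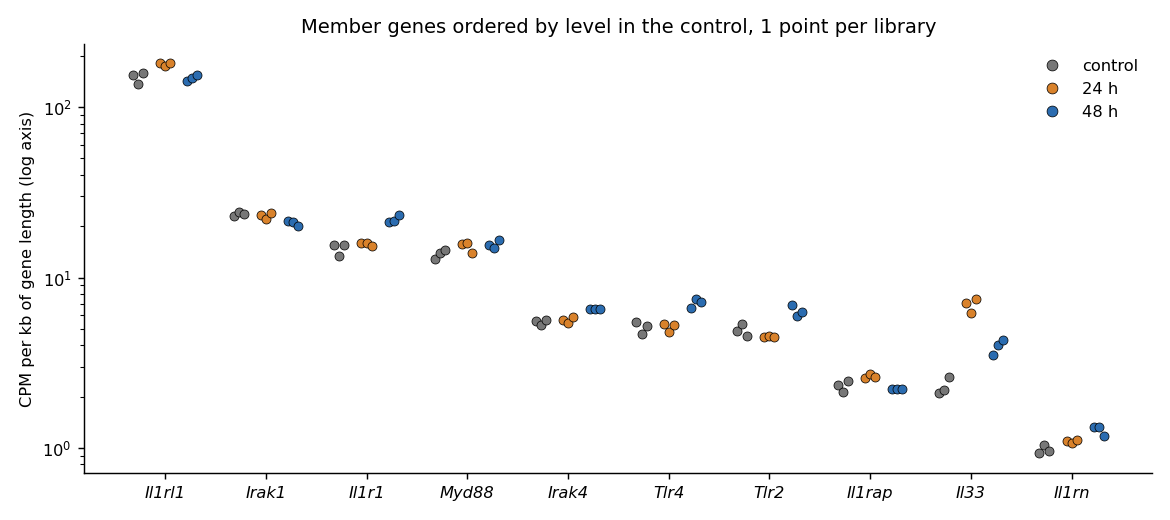
Levels of the 10 genes in CPM per kilobase of gene length, on a log axis, by group. Points are libraries, and genes are ordered by their control level. Il1rl1 stands above all others in every group, at 149.9 CPM per kilobase on average in control, and Il33 is higher at 24 h than in the other groups.

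Il33 (chr19:29902514-29938118, GRCm39 as for all genes below) was the gene with the largest change of the 10. Its level was 6.08, 6.29 and 7.51 CPM in the control libraries, 20.5, 17.9 and 21.6 CPM at 24 h and 10.1, 11.6 and 12.4 CPM at 48 h. No library of one group reached the range of another, and every 48 h library lay between the control and 24 h ranges. Il33 rose 3.02-fold at 24 h (log2 fold change 1.60, SE 0.12, adjusted p = 1.17e-07) and stood 1.72-fold above control at 48 h (log2 0.78, SE 0.13, adjusted p = 6.46e-05). It fell by 0.81 on the log2 scale from 24 h to 48 h (SE 0.11, adjusted p = 7.24e-06). These levels rest on 77 to 100 counts per control library and 276 to 307 counts at 24 h.

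Il1rn (chr2:24226865-24241506), which encodes the secreted and intracellular antagonists of IL-1 receptors, was low, with 71 to 128 counts per library. It was measured at 5.14, 5.80 and 5.34 CPM in control, at 6.07, 5.92 and 6.20 CPM at 24 h and at 7.30, 7.36 and 6.50 CPM at 48 h. The 3 ranges did not overlap. At 24 h the difference from control did not pass the test (log2 0.16, SE 0.14, adjusted p = 0.597). At 48 h Il1rn rose 1.30-fold (log2 0.38, SE 0.14, adjusted p = 0.0297). DESeq2 did not make this call (adjusted p = 0.0927), and it was lost when the fit left out control replicate 1 (adjusted p = 0.0809), control replicate 3 (adjusted p = 0.0557), 48 h replicate 1 (adjusted p = 0.0812) or 48 h replicate 2 (adjusted p = 0.0807).

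The proportion of the antagonist to the signalling receptor chain overlapped between control and each later group. Per kilobase, Il1rn stood at 0.0669 ± 0.0101 of Il1r1 in control, 0.0695 ± 0.00313 at 24 h and 0.0581 ± 0.00661 at 48 h (SD, n = 3).

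**Figure D2:**
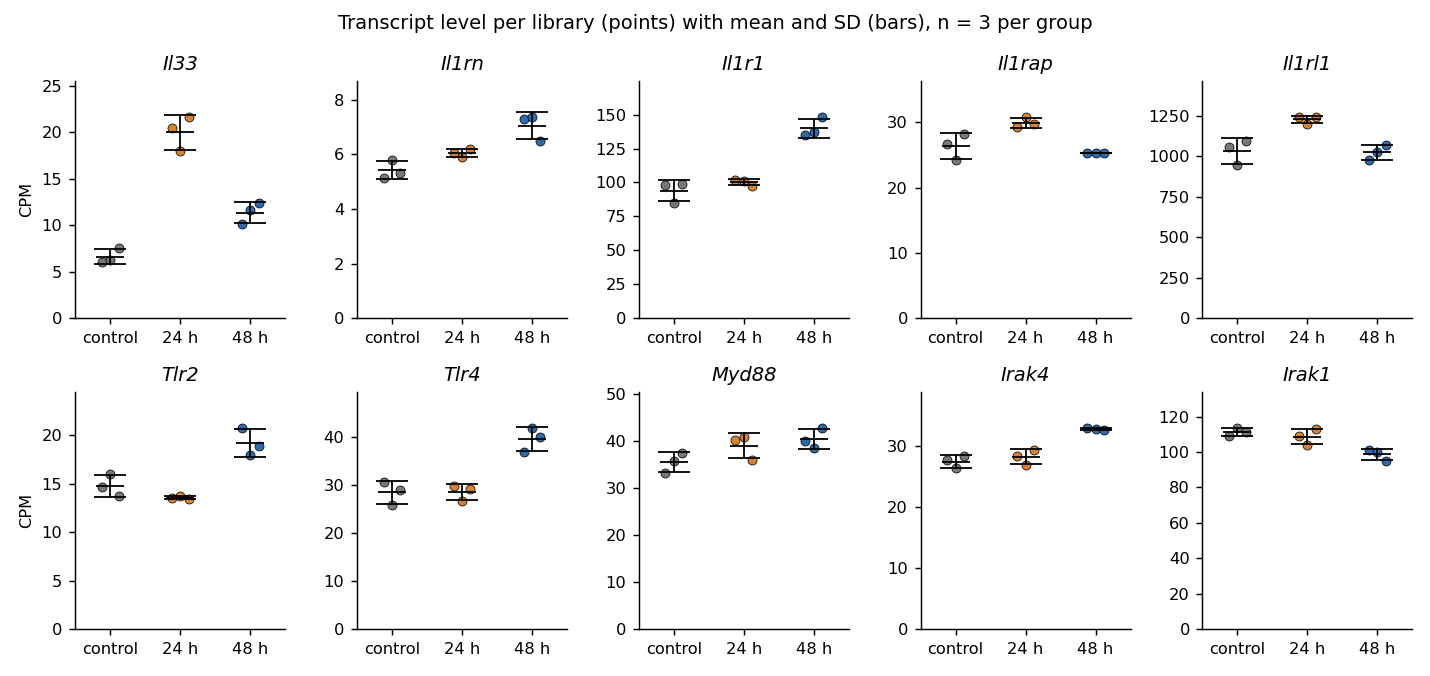
CPM of each of the 10 genes in every library, by group. Each panel has its own axis from 0, points are libraries, and lines give the mean and SD (n = 3). Il33 is highest at 24 h, Il1r1, Tlr2 and Tlr4 are highest at 48 h, and Il1rl1 is highest at 24 h.

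Il1r1 (chr1:40264240-40356417), the chain that binds IL-1α and IL-1β, rose at 48 h. Its level was 98.2, 84.9 and 98.9 CPM in control, 102.1, 101.3 and 97.5 CPM at 24 h and 134.9, 137.4 and 148.1 CPM at 48 h. The 24 h libraries overlapped the control libraries, and all 48 h libraries were above both. The change was 1.49-fold at 48 h (95% interval 1.36 to 1.63, log2 0.57, SE 0.06, adjusted p = 5.41e-07) and 0.09 on the log2 scale at 24 h (adjusted p = 0.487). From 24 h to 48 h it was 0.48 (SE 0.06, adjusted p = 3.63e-06).

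The accessory chain Il1rap (chr16:26400454-26548867), needed for signalling by both IL-1 and IL-33, passed the test at neither time against control. It was measured at 26.7, 24.2 and 28.2 CPM in control, at 29.2, 30.8 and 29.7 CPM at 24 h and at 25.3 CPM in each 48 h library. The log2 difference from control was 0.18 at 24 h (SE 0.08, adjusted p = 0.196) and −0.06 at 48 h (SE 0.08, adjusted p = 0.528), with an interval of 0.858-fold to 1.07-fold at 48 h. From 24 h to 48 h it fell by 0.24 on the log2 scale (SE 0.07, adjusted p = 0.0111), a call lost without 24 h replicate 2 (adjusted p = 0.052). Per kilobase, Il1r1 exceeded Il1rap 6.37 ± 0.170-fold in control, 5.99 ± 0.216-fold at 24 h and 9.90 ± 0.496-fold at 48 h. The lowest 48 h library, at 9.53-fold, was above the highest control library, at 6.56-fold.

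Il1rl1 (chr1:40468730-40504575), the most abundant of the receptors, was higher at 24 h than in control and 48 h. Its libraries gave 1060, 946 and 1094 CPM in control, 1242, 1201 and 1242 CPM at 24 h and 980, 1025 and 1069 CPM at 48 h. The 24 h libraries were all above the others, and those at 48 h lay within the control range. Il1rl1 rose 1.19-fold at 24 h (log2 0.25, SE 0.05, adjusted p = 0.00339) and fell by 0.26 on the log2 scale from 24 h to 48 h (SE 0.05, adjusted p = 0.000231). At 48 h the difference from control was −0.01 (SE 0.05, adjusted p = 0.855), with an interval of 0.923-fold to 1.07-fold. Its counts, 11587 to 20044 per library, include all isoforms, so transcripts for soluble and membrane-bound ST2 cannot be told apart. Il33 and Il1rl1 were both highest at 24 h.

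Il1r1 and Il1rl1 lie in a cluster of 6 IL-1 receptor genes on chromosome 1, at chr1:40113239-40590865 of GRCm39, all on the plus strand in the order Il1r2, Il1r1, Il1rl2, Il1rl1, Il18r1 and Il18rap. Their levels differed along these 478 kb. Il1r2, the decoy receptor of IL-1, had at most 3 counts in any library, and so did Il1rl2, the IL-36 receptor chain that separates Il1r1 from Il1rl1. Il18r1, the ligand-binding chain of the IL-18 receptor directly after Il1rl1, had 5 to 22 counts. Il18rap, its accessory chain, had 77 to 185 counts per library. It was the only one of these 4 that passed the filter, and at 24 h it rose from 7.09 to 10.4 CPM (log2 0.54, SE 0.16, adjusted p = 0.0498), although its libraries overlapped those of control and the call was lost in 11 of 16 alternative settings.

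**Figure D3:**
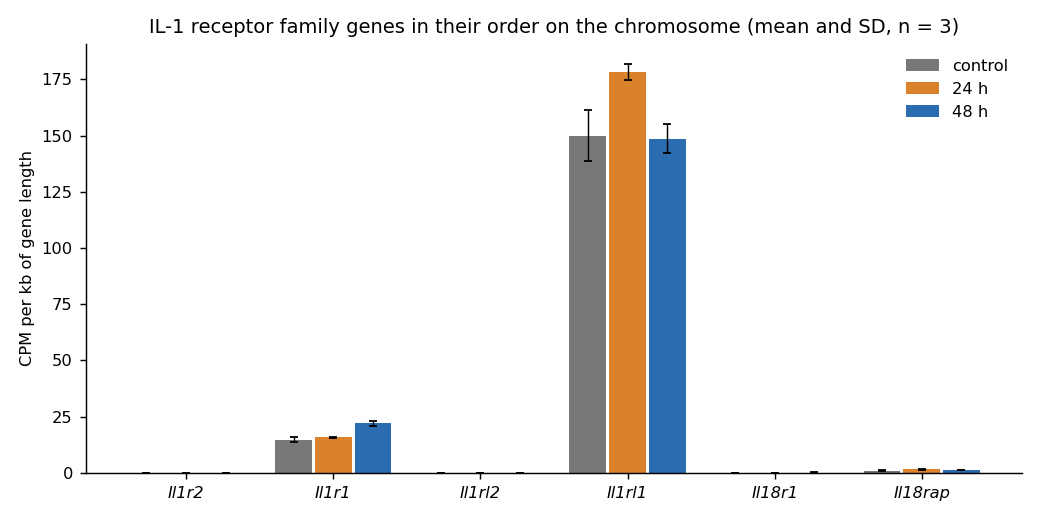
Levels of the 6 genes of the IL-1 receptor cluster in CPM per kilobase, in their order along chromosome 1, by group. Bars are means and whiskers the SD (n = 3). Il1r1 and Il1rl1 are separated by Il1rl2, which had at most 3 counts per library.

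Both Toll-like receptors rose at 48 h, and the change at 24 h did not pass the test. Tlr2 (chr3:83743579-83749074, minus strand) was at 14.6, 16.01 and 13.8 CPM in control, 13.5, 13.7 and 13.5 CPM at 24 h and 20.8, 18.0 and 18.9 CPM at 48 h. Every 48 h library was above every other, and the 24 h libraries lay just below those of control. Tlr2 rose 1.30-fold over control at 48 h (log2 0.38, SE 0.09, adjusted p = 0.00265) and by 0.50 on the log2 scale over 24 h (SE 0.09, adjusted p = 0.00021). The 24 h difference of −0.12 did not pass the test (SE 0.10, adjusted p = 0.567).

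Tlr4 (chr4:66745821-66848521) was measured at 30.5, 25.8 and 28.9 CPM in control, at 29.8, 26.7 and 29.2 CPM at 24 h and at 36.9, 41.8 and 40.0 CPM at 48 h. Control and 24 h libraries overlapped, whereas those at 48 h were all higher. The change at 48 h was 1.39-fold (log2 0.47, SE 0.08, adjusted p = 7.49e-05), and between 48 h and 24 h it was 0.47 on the log2 scale (SE 0.08, adjusted p = 6.4e-05). Per kilobase, Tlr4 stood at 1.05 ± 0.151 of Tlr2 in control, 1.14 ± 0.0763 at 24 h and 1.13 ± 0.151 at 48 h. The leukocyte markers Csf1r and Cd68 were at 3.23 and 2.89 CPM at 48 h and at 3.30 and 2.74 CPM in control, with overlapping libraries (adjusted p = 0.933 and adjusted p = 0.816). At 24 h Csf1r was at 1.83 CPM, with all libraries below those of control (log2 −0.84, adjusted p = 0.0377). From 24 h to 48 h Csf1r rose by 0.81 on the log2 scale (adjusted p = 0.0062). Tlr2 and Tlr4 also rose between these times, by 0.50 and 0.47. The part of Csf1r in their difference was not tested. Tlr4 also shares 1557 bases of its span with a non-coding RNA gene on the same strand, which had 42 to 114 counts.

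The adaptor Myd88 and the kinase Irak4 rose at 48 h, and the kinase Irak1 fell. Myd88 (chr9:119165000-119170477, minus strand) was at 33.3, 35.8 and 37.6 CPM in control, 40.3, 40.8 and 35.9 CPM at 24 h and 40.1, 38.6 and 42.9 CPM at 48 h. It was 1.14-fold higher at 48 h (log2 0.19, SE 0.07, adjusted p = 0.0398), and the 24 h difference of 0.14 did not pass the test (adjusted p = 0.345). DESeq2 did not make the 48 h call (adjusted p = 0.0672), and leaving out 1 library ended it for control replicate 1 (adjusted p = 0.143), 48 h replicate 1 (adjusted p = 0.0739) or 48 h replicate 3 (adjusted p = 0.161). Myd88 shares 1736 bases of its span with Acaa1a on the opposite strand, which had 804 to 1647 counts, and whether counting used the strand is not stated in the sources used here.

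Irak4 (chr15:94441524-94479696), the first kinase recruited by MYD88, was at 27.7, 26.4 and 28.4 CPM in control, 28.5, 26.99 and 29.5 CPM at 24 h and 33.0, 32.8 and 32.7 CPM at 48 h. The 48 h libraries differed little among themselves and lay above all others. Irak4 rose 1.19-fold over control at 48 h (log2 0.26, SE 0.07, adjusted p = 0.00571) and by 0.22 on the log2 scale over 24 h (SE 0.07, adjusted p = 0.0148), the latter call being lost without 24 h replicate 2 (adjusted p = 0.0574). The gene overlaps Twf1 on the opposite strand, with 1720 to 2680 counts.

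Irak1 (chrX:73057520-73067524, minus strand), the kinase that IRAK4 phosphorylates, was at 108.9, 113.6 and 111.3 CPM in control, 109.3, 104.0 and 112.8 CPM at 24 h and 101.2, 99.95 and 95 CPM at 48 h. All 48 h libraries were below the others. It fell by 0.17 on the log2 scale at 48 h (SE 0.05, adjusted p = 0.0137), a change to 0.888-fold, and this call was lost without 48 h replicate 3 (adjusted p = 0.0814). The fall from 24 h to 48 h of 0.14 (SE 0.05, adjusted p = 0.0402) was lost in 10 of 16 alternative settings, among them DESeq2, library sizes left unscaled (adjusted p = 0.135) and the fit without 24 h replicate 3 (adjusted p = 0.193). Per kilobase, Irak4 stood at 0.232 ± 0.0123 of Irak1 in control, 0.245 ± 0.000807 at 24 h and 0.313 ± 0.00905 at 48 h.

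Counted together at 48 h, 8 of the 10 genes were called different from control, 7 higher and 1 lower. Of all genes tested, 46.4% were called in that comparison, 22% higher and 24.4% lower. The same 8 genes, and 53% of all genes, had no overlap between libraries of the groups. The median log2 fold change of the 10 genes was 0.32, against −0.00 over all genes. At 24 h, 2 of the 10, Il33 and Il1rl1, were called, both higher, and 6.15% of all genes were called, 3.25% higher and 2.9% lower. The libraries of 5 did not overlap those of control at 24 h (21.5% of all genes), 4 of them higher and Tlr2 lower. Between 48 h and 24 h, 8 were called (49.1% of all genes). Il1r1, Tlr2, Tlr4 and Irak4 were higher, as were 23.7% of all genes, and Il33, Il1rap, Il1rl1 and Irak1 were lower, as were 25.4%. In this comparison the libraries of 9 genes did not overlap, against 59.5% of all genes. The comparisons with control share the control libraries, and the 10 genes were chosen with earlier results of these data known.

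**Figure D4:**
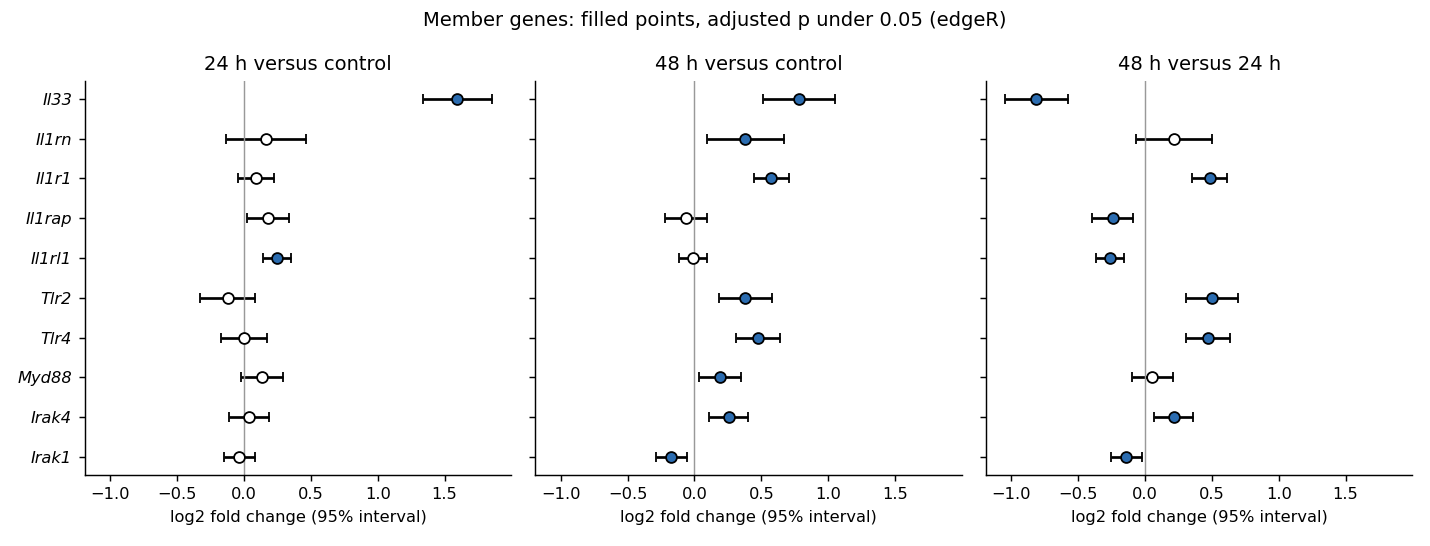
Log2 fold change of each of the 10 genes with 95% intervals from the edgeR fit, for 24 h and 48 h over control and for 48 h over 24 h. Filled points have an adjusted p under 0.05. Il33 is the farthest from 0, at 1.60 at 24 h, and Irak1 is the only gene called lower at 48 h against control.

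Other genes of the pathway were taken from a list of 99, of which 71 passed the filter. The list was chosen with earlier results of these data known, so its shares are only a description. At 24 h 20 of the 71 were higher and 0 lower by edgeR (DESeq2 19 and 0), with 25 higher and 2 lower at an unadjusted p under 0.05. At 48 h 27 were higher and 8 lower. The called share was 28.2% at 24 h and 49.3% at 48 h, beside 6.15% and 46.4% of all genes. The medians over the 71 were 0.06 and 0.17 on the log2 scale.

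Transcripts of the classical IL-1 ligands were at or under the floor. Il1a had at most 3 and Il1b at most 2 counts in any library, where 3 counts, or 0.162 to 0.245 CPM per library, is the highest level compatible with a library at 0 and is called the floor. Il36a, Il36b and Il36g were at 0 in all libraries. Il18 was at 3.41 CPM in control and 4.67 CPM at 48 h, without passing the test. Il18bp, which neutralises IL-18, rose from 5.53 to 9.50 CPM at 48 h (log2 0.79, SE 0.17, adjusted p = 0.00102).

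Among the other Toll-like receptors, Tlr1, Tlr3, Tlr5 and Tlr6 passed the filter, at 2.36, 12.9, 2.14 and 5.56 CPM in control, and the lowest adjusted p among them was 0.418 at 24 h and 0.0992 at 48 h against control. Between 24 h and 48 h Tlr1, a partner of TLR2, rose from 1.83 to 3.27 CPM (log2 0.83, SE 0.23, adjusted p = 0.00558), and the other 3 did not pass the test. Tlr7, Tlr8, Tlr9, Tlr11, Tlr12 and Tlr13 had at most 4 counts per library. Ly96, which encodes the lipopolysaccharide-binding partner of TLR4, was at 3.43 CPM in control, 2.93 CPM at 24 h and 4.11 CPM at 48 h.

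Transcripts of both proteins that hand lipopolysaccharide to TLR4 changed. Lbp, which encodes the lipopolysaccharide-binding protein, was at 7.02, 7.92 and 7.29 CPM in control, 8.13, 7.61 and 6.98 CPM at 24 h and 33.4, 29.1 and 34.5 CPM at 48 h. It rose 4.38-fold at 48 h (log2 2.13, SE 0.10, adjusted p = 1.5e-11), while at 24 h the difference was 0.04 (adjusted p = 0.917). Cd14, its membrane co-receptor, was at 13.9, 12.5 and 13.4 CPM in control, 20.3, 19.1 and 22.0 CPM at 24 h and 14.9, 16.6 and 16.6 CPM at 48 h. Cd14 rose at 24 h (log2 0.62, SE 0.10, adjusted p = 0.000304) and fell by 0.35 on the log2 scale from 24 h to 48 h (adjusted p = 0.00358). Its 48 h call over control (0.27, adjusted p = 0.0285) was lost in 6 of 16 alternative settings. Unc93b1, which carries endosomal Toll-like receptors, rose by 0.55 at 48 h (adjusted p = 0.000269).

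Of 30 adaptors and kinases tested, 7 were higher and 4 lower at 48 h, and at 24 h 1 was higher. The called share was 36.7% at 48 h and 3.33% at 24 h, below the 46.4% and 6.15% of all genes. The gene called at 24 h, Peli1 (log2 0.34, SE 0.10, adjusted p = 0.0422), lost its call in 10 of 16 alternative settings. Map3k8, a kinase that links these receptors to ERK, rose from 3.16 to 10.2 CPM at 48 h (log2 1.68, SE 0.18, adjusted p = 3.11e-07). Peli2, an E3 ligase of IRAK proteins, rose by 0.61 (adjusted p = 0.00102). Map2k3, a kinase of p38, fell by 0.50 on the log2 scale (adjusted p = 6.32e-07), and Ube2n, the ubiquitin-conjugating partner of TRAF6, fell by 0.38 (adjusted p = 5.26e-06). Irak3, an IRAK family member that restrains signalling and was singled out after its values were seen, was at 18.7 CPM in control and 28.1 CPM at 48 h (log2 0.59, SE 0.09, adjusted p = 1.59e-05).

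Transcripts of proteins that can act as ligands of Toll-like receptors changed in both directions, with 3 of 9 tested higher at 24 h and 4 higher and 2 lower at 48 h. Of all genes, 3.25% were higher at 24 h, and 22% were higher and 24.4% lower at 48 h. Vcan rose from 136.1 to 250.3 CPM at 24 h (log2 0.88, adjusted p = 1.66e-06). Tnc rose by 0.69 on the log2 scale at 24 h (adjusted p = 1.43e-06) and by 0.92 at 48 h (adjusted p = 2.2e-09). Dcn rose by 1.08 at 48 h (adjusted p = 4.65e-12), whereas Hspd1 fell by 0.94 (adjusted p = 1e-11) and Hmgb1 by 0.24 (adjusted p = 0.00259). Release of these proteins was not measured.

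Genes listed as responses to IL-1 and Toll-like receptors made up 14 of the 20 higher genes at 24 h. Which receptor or signal lay upstream of them was not tested. The 18 tested had a median log2 fold change of 1.02 at 24 h. At 48 h 12 were higher and 2 lower, with a median of 0.59. The called share was 77.8% at 24 h and 77.8% at 48 h, beside 6.15% and 46.4% of all genes. As these genes were listed with earlier results of these data known, this contrast is only a description. Of all genes, 3.25% were higher at 24 h, and 22% were higher and 24.4% lower at 48 h. Saa3, an acute-phase gene, rose from 2.26 CPM to 101.9 CPM at 24 h (log2 5.51, adjusted p = 2.19e-13) and stood at 71.8 CPM at 48 h. Lcn2 had 7 counts in the control libraries together, 239 at 24 h and 198 at 48 h, a ratio of 31.8 (95% counting interval 15.2 to 79.9) and of 22.1 (10.6 to 55.8). Ptgs2, which encodes cyclooxygenase-2, rose by 0.92 at 24 h (adjusted p = 4.86e-07) and fell by 0.78 at 48 h against control (adjusted p = 6.73e-07). Ccl2 rose by 0.41 at 24 h (adjusted p = 0.0138) and was lower at 48 h (log2 −0.78, adjusted p = 5.84e-06). From 24 h to 48 h, 9 response genes fell and 3 rose, together 66.7% of those tested. In that comparison 49.1% of all genes were called, 25.4% lower and 23.7% higher.

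**Figure D5:**
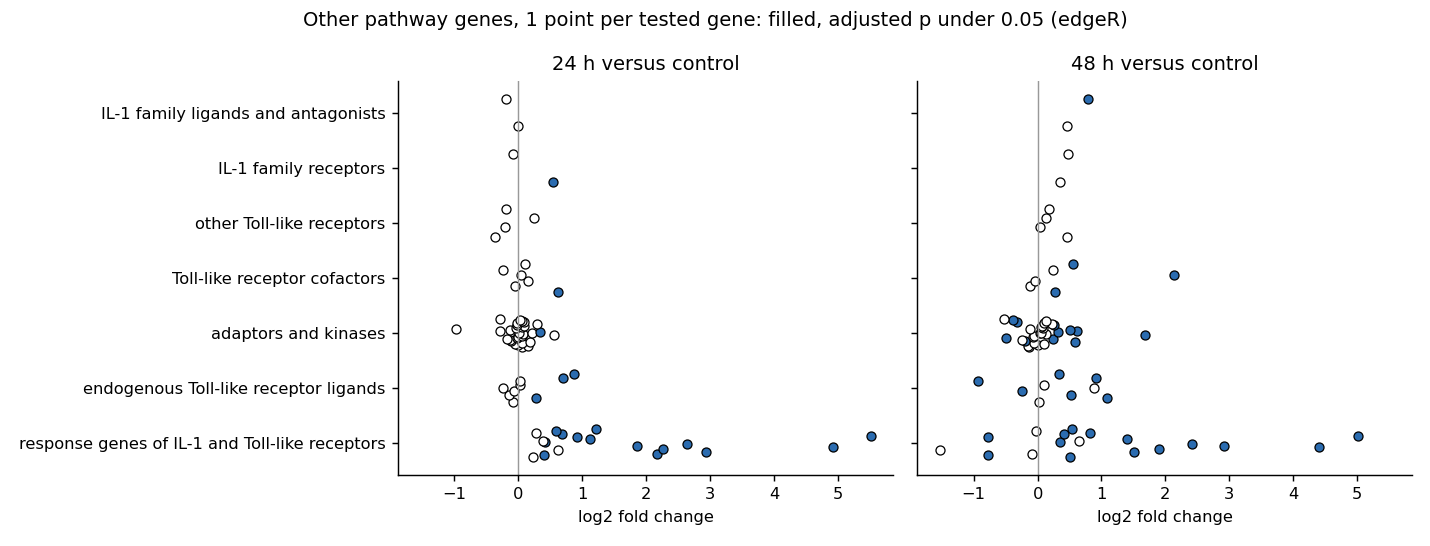
Log2 fold change over control at 24 h and 48 h of the other genes of the pathway that were tested, by group of the list. Points are genes, filled where the adjusted p from edgeR was under 0.05. The response genes lie farthest above 0 at 24 h, with a median of 1.02.

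The genes whose levels followed Il1r1 most closely, by Pearson correlation of log2 CPM over the 9 libraries among 10079 protein-coding genes with at least 5 CPM, were Sema5a (r = 0.994), Sntb2 (r = 0.992) and Lpgat1 (r = 0.992). For Il1rl1 they were Ttc37 (r = 0.98), Arel1 (r = 0.975) and Crybg3 (r = 0.974). For Tlr2 they were Prr13 (r = 0.985), Tle2 (r = 0.982) and Glb1 (r = 0.981). The points are 9 libraries of 3 groups, so differences between groups enter these values, which are a description.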

How the data were processed

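RNA sequencing of co-cultured MLO-Y4 cells gave 9 directional libraries. The values are raw counts for each gene, in 1 table that the authors deposited. According to the labels, reads were trimmed, aligned to GRCm39 with HISAT2 and counted with featureCounts. The sources differ on its version, and the methods also name RSEM, which was not reconciled here. Use of the strand and of reads with several matches is not given in the sources used here, so overlapping genes are uncertain. Gene lengths and coordinates are those of the table.

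Groups follow the sample labels, which do not say whether replicates were separate cultures, so p-values measure only the spread between these samples, which may be technical. Replicate pairs differed by 2.32 to 8.83 chi-square units per degree of freedom, so none was counted as 1 library. Counts were analysed with edgeR 4.0.16, limma 3.58.1 and R 4.3.3. Genes passed filterByExpr with a minimum count of 10, library sizes were scaled by TMM (factors 0.983 to 1.015), and all libraries entered 1 quasi-likelihood fit with 6 residual degrees of freedom. P-values were adjusted by Benjamini-Hochberg over all 13812 genes tested, and an adjusted p under 0.05 is called. Each standard error is the size of the fold change divided by the root of F. Counting intervals and floors cover counting error only. The procedure was also run on simulated counts. Far fewer genes were changed there than were called at 48 h, so that run does not show how the procedure performs in this comparison. DESeq2 1.42.0 and other settings were tried as alternatives.

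The 10 genes, the list of 99 pathway genes and the marker lists were chosen with earlier results of these data known. Named pathway genes are at most the 2 called genes with the largest change in each direction and list group against control at each time. Any receptor or cofactor could also be named. Likeness was by the 3 highest correlations.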

Additional observations from a re-analysis of the deposited data

Results flagged for a closer look

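The changes at 24 h and at 48 h over control were compared directly through the 48 h versus 24 h test of edgeR, and 8 of the 10 genes differed. On the log2 scale, Tlr2 was higher at 48 h by 0.50, Il1r1 by 0.48, Tlr4 by 0.47 and Irak4 by 0.22. Il33 differed by −0.81, Il1rl1 by −0.26, Il1rap by −0.24 and Irak1 by −0.14, all lower at 48 h. The Irak1 call was lost in 10 of 16 alternative settings, DESeq2 among them, the Irak4 call in 3 and the Il1rap call in 2. In the same test 49.1% of all genes were called. Groups of 3 libraries are too small for a test of single outlying libraries.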

How the results depend on the processing

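Against control, the calls of Il33, Il1r1, Tlr2, Tlr4 and Irak4 at 48 h and of Il33 and Il1rl1 at 24 h held in every alternative run. At an adjusted p under 0.01, 5 of the 10 genes were called at 48 h against control (8 at 0.05), 5 between 48 h and 24 h (8 at 0.05), and of all genes 4760, 5156 and, at 24 h, 464 (849 at 0.05). Leaving out 1 library at a time, 6 to 8, 2 and 6 to 8 of the 10 genes were called at 48 h, at 24 h and between times. For the 99 pathway genes the ranges were 33 to 37, 17 to 20 and 35 to 40. Over all genes they were 5504 to 6439, 518 to 1475 and 5965 to 7236, with 518 without 24 h replicate 3, 524 without 24 h replicate 1 and 1475 without control replicate 3. Signs turned for differences near 0 that were not called. With library size only, the log2 difference of Il1rl1 at 48 h went from −0.01 to 0.00798 and that of Tlr4 at 24 h from 0.00234 to −0.016. Without single libraries, Il1rl1 at 48 h ranged from −0.0614 to 0.0437, Tlr4 at 24 h from −0.0566 to 0.0612 and Irak1 at 24 h from −0.0573 to 0.00129. Of 480 values for the 10 genes, 440 kept direction and call, 31 lost the call and 9 changed sign. Apart from the stricter threshold, the cause was not tested.

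Pairing of libraries by replicate number was not detected, since same-numbered libraries deviated with correlations of −0.0493 to 0.0775 and 0 of 9 pairs passed 0.1. A check on so few libraries cannot show that there was no pairing. With the replicate block, 7, 2 and 8 of the 10 genes were called at 48 h, at 24 h and between times, 36, 21 and 38 of the pathway genes, and 6468, 958 and 6810 of all genes. Myd88 at 48 h had an adjusted p of 0.0503 with the block.

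Without a filter on low counts, calls were lost by edgeR for Il1rn (adjusted p = 0.0808) and Myd88 (adjusted p = 0.0676) at 48 h and for Irak4 between times (adjusted p = 0.0765). Il1rn had 71 to 128 counts per library, the fewest of the 10 genes.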
